A study of Mus musculus with 16 samples.

Results

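The Cyp2a cytochromes are a small family of liver P450 enzymes, and their transcripts Cyp2a4, Cyp2a5, Cyp2a12 and Cyp2a22 were followed here across 16 mouse livers sequenced as bulk RNA. The 4 genes were taken as a named list and matched by symbol among 55471 gene identifiers, and they were chosen with their levels in these livers already known. Their levels and fold changes are therefore given as descriptions, with no test.

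The study asked how antibiotic exposure early in life relates to physiology in old age. Its 4 groups held 4 libraries each. Aged mice labelled PAM I and aged mice labelled PAM II had received antibiotics and were sampled at 102 weeks. Aged control mice had received none and were sampled at the same age, and young control mice, also without antibiotics, were sampled at 12 weeks. One free-text field describes the young mice as aged, and their title, age and group labels were followed instead. Strain, sex, litter, cage, the drugs and the meaning of PAM were not given in the sources used here. Nothing says which mice shared a litter or cage, so each error and p-value measures the spread between these libraries.

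Cytochrome P450 enzymes of the endoplasmic reticulum use heme iron, oxygen and electrons from the reductase Por to hydroxylate lipophilic molecules. In mice, Cyp2a5 hydroxylates coumarin, nicotine and bilirubin, Cyp2a4 and Cyp2a12 hydroxylate steroids, and Cyp2a4 is known for far higher levels in female than in male liver. That sex difference follows the rhythm of growth hormone release, read through the transcription factor Stat5b, while Cyp2a5 is known to answer to the nuclear receptor CAR (Nr1i3), Nrf2 (Nfe2l2), Hnf4a and the clock-driven factor Dbp.

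The 4 genes lie on chromosome 7 (GRCm38), in the order Cyp2a4 (26307169 to 26315088, plus strand), Cyp2a5 (26835305 to 26843548, plus strand), Cyp2a22 (26931631 to 26939384, minus strand) and Cyp2a12 (27029081 to 27037375, plus strand). Cyp2b9 ends 96.5 kb before Cyp2a4, and 520 kb separate Cyp2a4 from Cyp2a5. By sequence they form close pairs. The longest annotated transcripts of Cyp2a4 and Cyp2a5 were 98.2% identical over 1739 aligned positions, those of Cyp2a12 and Cyp2a22 were 95.3% identical over 3460, and any gene of one pair against any of the other came to between 58.6% and 60.4%. All 4 genes matched an entry in the RefSeq promoter table (GRCm38.p6). The bases upstream of the earliest annotated start are shown because the 2 genes of each pair differ so much in level. Each runs 5′ to 3′ in the direction of its gene, and capitals mark bases that differ from the other promoter of the pair. Cyp2a4 covers chr7:26306942-26307168 and Cyp2a5 chr7:26835089-26835304 on the plus strand, Cyp2a12 covers chr7:27028840-27029080 on the plus strand, and Cyp2a22 covers chr7:26939414-26939636 on the minus strand.
Cyp2a4: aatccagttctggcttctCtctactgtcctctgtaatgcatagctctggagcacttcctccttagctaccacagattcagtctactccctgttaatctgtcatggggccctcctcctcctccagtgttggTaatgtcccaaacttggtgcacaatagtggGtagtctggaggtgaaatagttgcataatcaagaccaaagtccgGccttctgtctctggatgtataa
Cyp2a5: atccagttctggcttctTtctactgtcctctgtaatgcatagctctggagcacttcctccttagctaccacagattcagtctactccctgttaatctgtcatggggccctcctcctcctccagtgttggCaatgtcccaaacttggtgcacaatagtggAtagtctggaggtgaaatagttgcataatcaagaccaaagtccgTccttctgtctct
Cyp2a12: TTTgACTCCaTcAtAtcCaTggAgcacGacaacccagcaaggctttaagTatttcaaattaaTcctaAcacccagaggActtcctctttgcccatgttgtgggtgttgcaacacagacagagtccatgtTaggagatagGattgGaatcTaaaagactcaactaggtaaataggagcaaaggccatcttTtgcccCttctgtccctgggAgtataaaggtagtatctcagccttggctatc
Cyp2a22: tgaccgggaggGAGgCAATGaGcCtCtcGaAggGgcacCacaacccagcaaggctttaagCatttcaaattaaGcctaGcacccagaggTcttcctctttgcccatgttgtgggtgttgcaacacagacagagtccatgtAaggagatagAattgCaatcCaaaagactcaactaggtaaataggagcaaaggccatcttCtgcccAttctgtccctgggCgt

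The Cyp2a4 and Cyp2a5 promoters differed at 4 of 216 aligned bases, and those of Cyp2a12 and Cyp2a22 at 26 of 212. Fixed motifs were searched on both strands of the whole RefSeq windows, which run past the bases printed here, and in 32851 mouse promoter windows of the same length. TATAAA, a core promoter box, was in 4 of 4 family windows, between 39 and 23 bases before the RefSeq start, and in 13.6% of all windows. CAAAGTCC, an HNF4-type element, was in Cyp2a4 and Cyp2a5, ending 48 and 49 bases before the start, and in 1.42% of all windows. TTATGCAA, of the type bound by C/EBP and PAR bZIP factors, was on the opposite strand of the same 2 promoters, ending 63 and 64 bases before the start, and in 0.743% of all windows. TTCNNNGAA, of the type bound by STAT factors, was in 0 of 4 and in 8.30% of all windows. No match overlapped another, and each is a match of letters in these windows, not a mapped site.

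Between 36968993 and 52090914 fragments were assigned to genes in each library. Levels are given in CPM, fragment counts scaled to library size with TMM factors. All 10 hepatocyte markers were detected in 16 of 16 libraries, with a summed level between 91422 and 151067 CPM. Of them, 0 rose and 1 fell in aged controls against young controls by edgeR, beside 3.23% called over all genes. Before adjustment 4 had p under 0.05 by edgeR. The list's median log2 fold change was -0.22, against -0.0077 over all genes. The part of hepatocyte content in the age difference of the family was not tested. Xist, which is transcribed from the inactive X chromosome, ran from 0 to 0.114 CPM, and the Y-linked gene Ddx3y from 16.1 to 44.3 CPM. So each of the 16 livers held Y-linked transcript and almost no Xist, the pattern of male livers, although the labels give no sex. In bulk liver, fewer hepatocytes and less transcript per hepatocyte cannot be told apart.

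Cyp2a4 stood near the limit of detection in young livers and well above it in every aged liver. It had 55.6, 53.0, 6.64 and 10.9 CPM in PAM I livers, 15.1, 56.0, 20.5 and 48.3 CPM in PAM II livers and 3.65, 22.6, 12.6 and 12.3 CPM in aged control livers. Young control livers had 0.336, 0.349, 0.340 and 0.188 CPM, which rest on 11, 14, 14 and 7 fragments. All 12 aged livers lay above all 4 young livers, as they did for 2.69% of the 17046 genes tested, and the lowest aged liver was 10.4 times the highest young one. Among the aged livers the levels spread 15.3-fold, and PAM I livers fell into a high and a low pair.

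The group means of Cyp2a4 were ordered PAM II (35.0 ± 20.2 CPM), PAM I (31.5 ± 26.4), aged control (12.8 ± 7.74) and young control (0.303 ± 0.0771; SD, n = 4 each). Neighbouring aged groups overlapped. The aged controls all lay above the young controls, as for 4.83% of the genes tested. The fitted log2 fold change of aged control against young control was 5.38 ± 0.86 (SE). Summed over libraries, 2296 fragments in aged controls stood against 46 in young controls, a scaled ratio of 41.1 (95% interval 30.7 to 56.3, counting error only).

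Cyp2a22 showed the same order of aged and young livers. It had 74.9, 68.3, 9.19 and 35.2 CPM in PAM I livers, 17.6, 82.4, 47.2 and 79.1 CPM in PAM II livers and 8.25, 49.98, 31.4 and 34.7 CPM in aged control livers, against 2.66, 3.84, 1.36 and 0.885 CPM in young control livers. Again 12 of 12 aged livers exceeded every young one, the closest by 2.15-fold. The means were 56.6 ± 30.5 CPM in PAM II, 46.9 ± 30.6 in PAM I, 31.1 ± 17.2 in aged control and 2.19 ± 1.33 in young control livers (SD, n = 4 each). The log2 fold change of aged control against young control was 3.83 ± 0.72 (SE), and the aged groups overlapped one another.

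Cyp2a5, the coumarin hydroxylase, stayed at a similar mean in aged and young controls but spread more widely among aged livers. It had 345, 418, 266 and 396 CPM in PAM I livers, 74.5, 290.5, 265 and 500 CPM in PAM II livers, 128, 374, 267 and 169 CPM in aged control livers and 271, 249, 238 and 201 CPM in young control livers. All groups overlapped; the lowest PAM I liver (266 CPM) was just below the highest young one (271 CPM). The means were 356 ± 67.2 CPM in PAM I, 283 ± 174 in PAM II, 234 ± 110 in aged control and 240 ± 29.3 in young control livers (SD, n = 4 each). Within the aged livers Cyp2a5 spread 6.72-fold, and within the young livers 1.35-fold.

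Cyp2a12, a steroid hydroxylase, was the steadiest member. It had 520, 644, 433 and 562 CPM in PAM I livers, 358, 708, 603 and 622 CPM in PAM II livers, 465, 681, 532 and 435 CPM in aged control livers and 563, 538, 483 and 593 CPM in young control livers. All groups overlapped, with means between 528 ± 109 CPM in aged controls and 573 ± 150 CPM in PAM II livers (SD, n = 4). The lowest and highest of the 16 livers, both PAM II, differed 1.98-fold.

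**Figure D1:**
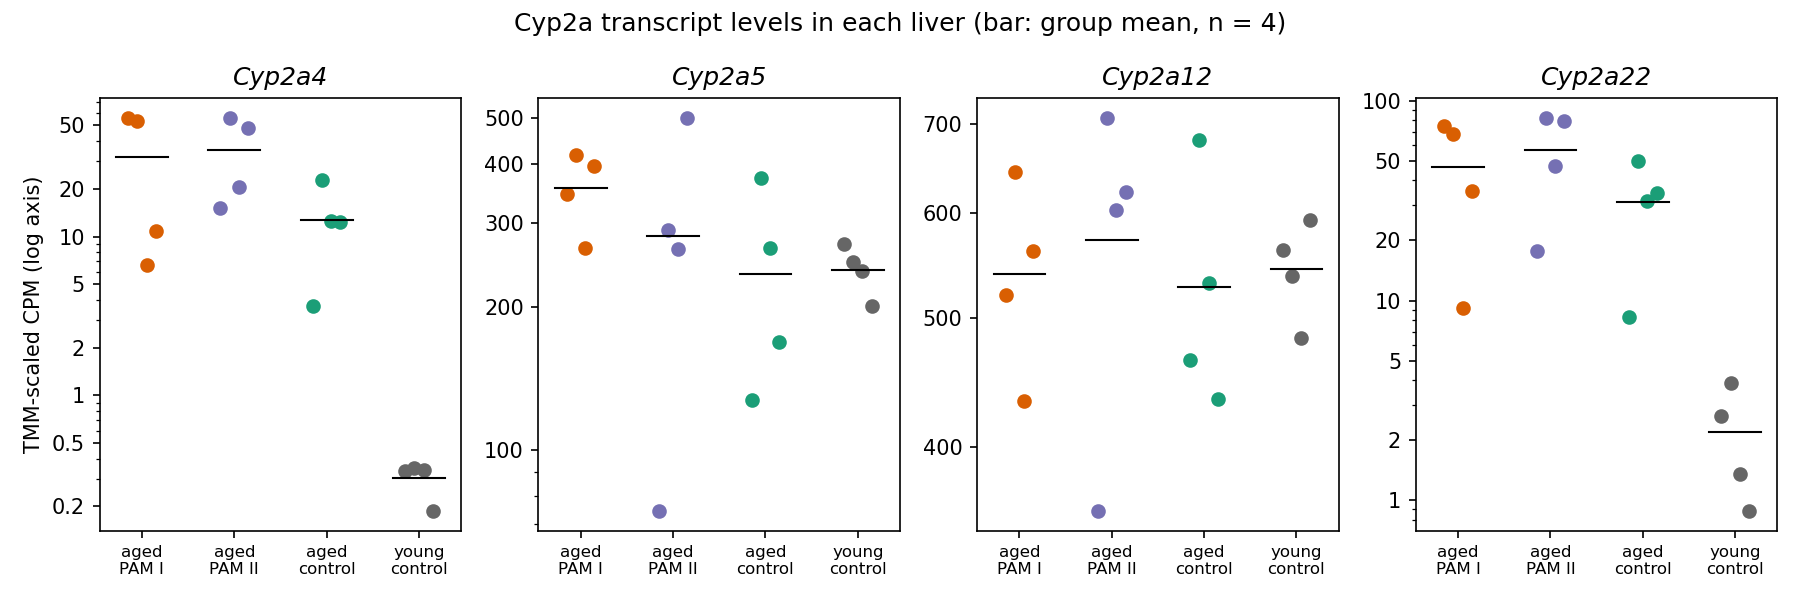
TMM-scaled CPM (log axis, a separate range in each panel) of the 4 Cyp2a genes in each liver, with the group mean as a bar. The 12 aged livers lie above the 4 young livers for Cyp2a4 (at least 3.65 against at most 0.349 CPM) and Cyp2a22 (at least 8.25 against at most 3.84 CPM), while the groups overlap for Cyp2a5 and Cyp2a12.

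Set per kilobase of exon, Cyp2a12 and Cyp2a5 together made up 91.8 ± 5.69% of the family's level in PAM I livers, 89.6 ± 2.70% in PAM II livers, 94.5 ± 2.37% in aged controls and 99.7 ± 0.145% in young controls (SD, n = 4 each). Cyp2a4 made up 4.69 ± 3.65% of the family level per kilobase in PAM I livers, 5.80 ± 1.81% in PAM II livers, 2.46 ± 1.01% in aged controls and 0.0638 ± 0.0164% in young controls (SD, n = 4 each). Cyp2a22 made up 3.54 ± 2.11% in PAM I livers, 4.59 ± 1.11% in PAM II livers, 3.08 ± 1.39% in aged controls and 0.229 ± 0.135% in young controls. The summed CPM of the 4 genes was 975 ± 193 in PAM I, 947 ± 346 in PAM II, 806 ± 238 in aged control and 786 ± 47.1 in young control livers, with all groups overlapping.

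Fragments of a close pair can be left uncounted or placed at the other gene, so each scarcer gene was also set against its pair. Of the distinct 100-base windows of Cyp2a4, 11.2% also occurred in Cyp2a5 or the pseudogene Cyp2a21-ps, and 12.1% of those of Cyp2a5 occurred in another gene. Cyp2a12 and Cyp2a22 shared 3.97% and 3.98% of theirs. Cyp2a4 supplied 13.9, 11.3, 2.43 and 2.67% of the Cyp2a4 plus Cyp2a5 fragments in PAM I livers, 16.9, 16.2, 7.19 and 8.80% in PAM II livers, 2.78, 5.69, 4.50 and 6.81% in aged controls, and 0.124, 0.140, 0.143 and 0.0933% in young controls. In this share the 4 PAM II livers lay above the 4 aged controls and the PAM I livers lay on both sides of them. The level of Cyp2a4 itself overlapped between PAM II livers and aged controls. The highest share, in PAM II replicate 1, went with the lowest Cyp2a5 of the 16 livers (74.5 CPM). Its Cyp2a4 was 15.1 CPM, below the 22.6 CPM of aged control replicate 2. How often other gene pairs separate in this way was not tested. Mean Cyp2a5 was 234 CPM in aged controls and 240 CPM in young controls, and at most 0.143% of the pair's fragments went to Cyp2a4 in any young liver. Cyp2a22 supplied 2.08 to 12.6% of its pair in PAM I livers, 4.69 to 11.3% in PAM II livers, 1.74 to 7.39% in aged controls and 0.149 to 0.710% in young controls. Summed as 1 unit, Cyp2a4 and Cyp2a5 had a log2 fold change of 0.047 ± 0.41 (SE) for aged control against young control, since Cyp2a5 carries most of the sum.

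**Figure D2:**
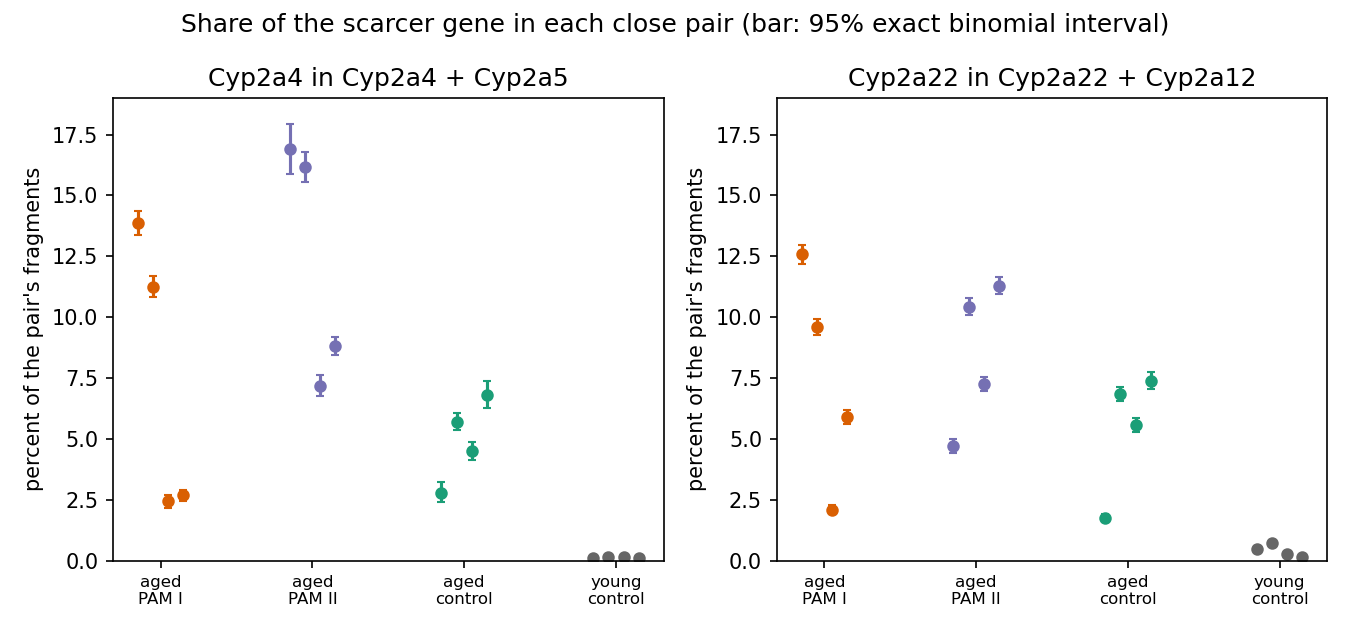
Percent of the fragments of each close pair that were assigned to its scarcer gene, per liver, with the 95% exact binomial interval (counting error only). Cyp2a4 reaches 2.43 to 16.9% in aged livers and at most 0.143% in young livers. Cyp2a22 reaches 1.74 to 12.6% in aged livers and at most 0.710% in young livers.

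Of the 4 members, 2 (Cyp2a4 and Cyp2a22) were past the adjusted threshold of 0.05 as higher in aged controls than in young controls, by edgeR's quasi-likelihood test across 17046 genes. In that comparison 3.23% of all genes passed, 1.92% as higher and 1.31% as lower. The genes were chosen with this comparison known, so nothing is read from the count. For aged control against young control, the log2 fold changes of Cyp2a5 and Cyp2a12 were -0.033 ± 0.41 and -0.043 ± 0.19 (SE).

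The antibiotic comparisons moved no member past the threshold. For PAM I against aged control, the log2 fold changes were 1.30 ± 0.63 for Cyp2a4, 0.60 ± 0.41 for Cyp2a5, 0.032 ± 0.19 for Cyp2a12 and 0.59 ± 0.63 for Cyp2a22 (SE). For PAM II against aged control, which uses the same 4 control livers, they were 1.45 ± 0.63 for Cyp2a4, 0.27 ± 0.41 for Cyp2a5, 0.12 ± 0.19 for Cyp2a12 and 0.86 ± 0.63 for Cyp2a22. For PAM II against PAM I they were 0.15 ± 0.62 for Cyp2a4, -0.33 ± 0.41 for Cyp2a5, 0.085 ± 0.19 for Cyp2a12 and 0.27 ± 0.62 for Cyp2a22. In each of these comparisons 0 of 4 members and 0.0% of the 17046 genes passed by edgeR. Before adjustment 1602, 465 and 778 genes had p under 0.05 in the 3 comparisons as listed. DESeq2 called 15, 0 and 0 genes and limma voom 0 in each.

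These antibiotic fold changes shifted when the livers with more skeletal muscle transcript, 6 of the 12 aged ones, were left out. Leaving out those 6 livers was an alternative chosen after seeing the data. For PAM I against aged control, the log2 fold changes were then -0.14 ± 0.45 for Cyp2a4 and -0.18 ± 0.71 for Cyp2a22 (SE). Both turned in sign and lay within their SE of 0, and Cyp2a5 was at 0.80 ± 0.29. For PAM II against aged control the log2 fold change of Cyp2a4 was 0.66, and Cyp2a5 (-1.35), Cyp2a12 (-0.43) and Cyp2a22 (-0.51) turned in sign. That fit leaves 1 PAM II liver, assumed to vary like the others. With the muscle list as a covariate over all livers, Cyp2a4 was at 0.33 for PAM I and 0.42 for PAM II against aged control, Cyp2a22 at 0.14 and 0.23, and Cyp2a5 at 0.40 and -0.28.

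**Figure D3:**
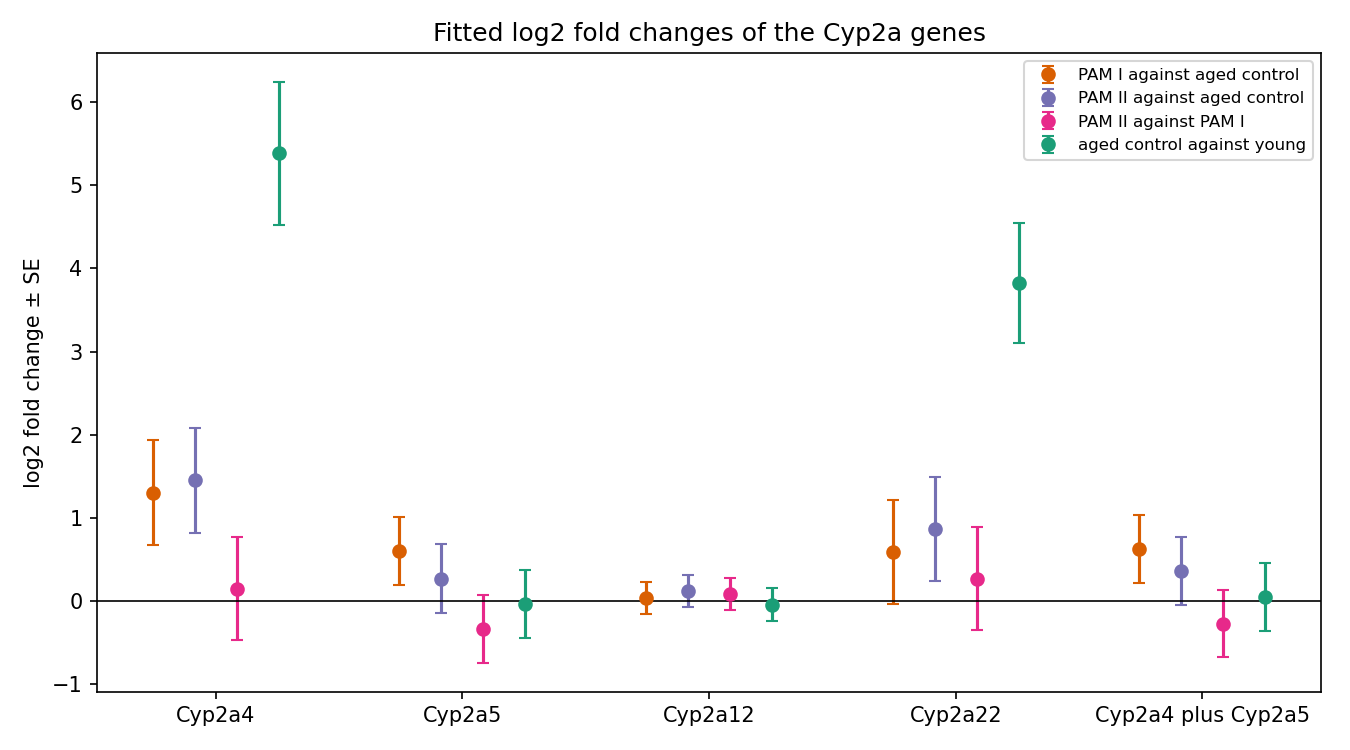
Fitted log2 fold change (point) with its SE (bar) of each Cyp2a gene and of Cyp2a4 plus Cyp2a5, for the 4 comparisons. The aged control against young control values of Cyp2a4 (5.38) and Cyp2a22 (3.83) stand far from 0, and the antibiotic comparisons of Cyp2a4 lie at 1.30 and 1.45.

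The spread of the family among aged livers ran alongside transcripts of skeletal muscle and of Kupffer cells. Skeletal muscle genes, a list of 14 markers of that tissue, had a mean log2 CPM between -0.55 and 2.54 in 6 aged livers (PAM I replicates 1 and 2, PAM II replicates 2, 3 and 4, and aged control replicate 2) and between -3.84 and -3.37 in the other 6. Cyp2a4 was 20.5 to 56.0 CPM in the 6 with more muscle transcript and 3.65 to 15.1 CPM in the 6 with less. Cyp2a22 was 47.2 to 82.4 CPM in those with more and 8.25 to 35.2 CPM in those with less, so neither gene overlapped between these livers. Of all 17046 genes, 0.546% were likewise higher without overlap in the 6 with more muscle transcript. The ranges of Cyp2a5 (265 to 500 against 74.5 to 396 CPM) and Cyp2a12 (520 to 708 against 358 to 562 CPM) did overlap. Young replicates 1, 3 and 4 had muscle means of 2.62, -0.73 and 0.64 and held 0.336, 0.340 and 0.188 CPM of Cyp2a4. Young replicate 2, at -3.99, held 0.349 CPM. For aged control against young control, the median log2 fold change of the muscle list was -3.56. In that comparison 0 of the 14 genes passed by edgeR, and 8 had p under 0.05 before adjustment. The summed muscle level ran over 2.05 to 49.8 CPM in PAM I livers, 1.75 to 128 CPM in PAM II livers, 0.811 to 14.7 CPM in aged controls and 1.10 to 132 CPM in young controls, with 0 to 8, 0 to 6, 0 to 8 and 0 to 11 of the 14 genes at 0 in these groups as listed.

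Kupffer cell genes, which mark resident liver macrophages, ran the other way to all 4 members among the aged livers. Their mean log2 CPM had r = -0.890 with Cyp2a4, -0.727 with Cyp2a5, -0.717 with Cyp2a12 and -0.898 with Cyp2a22 over the 12 aged livers after each group mean was subtracted, as a description over shared libraries. All 12 were detected in every liver, and their summed level ran over 376 to 1461 CPM in PAM I, 457 to 1748 CPM in PAM II, 280 to 800 CPM in aged control and 308 to 406 CPM in young control livers. In each aged group, the liver with the highest Kupffer sum (PAM I replicate 3, PAM II replicate 1 and aged control replicate 1) had the lowest Cyp2a4, Cyp2a5 and Cyp2a22, and in the PAM I and PAM II groups also the lowest Cyp2a12. The order did not hold at the other end in aged controls. Their lowest Kupffer mean log2 CPM (3.29) was in a liver with less muscle transcript. Aged control replicate 2, highest for all 4 members, was among the livers with more, where Kupffer means began at 3.94. The part of Kupffer transcripts in the antibiotic comparisons of the family was not tested. Without the 6 livers with more muscle transcript, the log2 fold change of Cyp2a4 for aged control against young control was 4.95.

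The summed levels of lymphocyte and of endothelium markers also separated aged controls from young controls, as Cyp2a4 and Cyp2a22 did. Their mean log2 CPM did not separate these groups. It was 0.4996 to 2.85 in aged controls and -0.056 to 0.517 in young controls for lymphocytes. For endothelium it was 4.01 to 4.84 in aged controls and 4.57 to 4.996 in young controls. The 11 lymphocyte markers summed to 150.1 to 596 CPM in PAM I livers, 124 to 257 CPM in PAM II livers, 82.5 to 171 CPM in aged controls and 23.9 to 40.2 CPM in young controls, with none at 0 in any liver. Of them, 1 (Ighm, an immunoglobulin heavy chain) rose and 0 fell in aged controls against young controls by edgeR, with a median log2 fold change of 1.24. The 10 endothelium markers summed to 206 to 321 CPM in PAM I livers, 235 to 417 CPM in PAM II livers, 189.7 to 315 CPM in aged controls and 338 to 381 CPM in young controls, with none at 0. Of them, 0 rose and 2 (Clec4g and Dnase1l3) fell in aged controls, with a median of -0.54; the genes named for both lists were picked after their values were seen. The part of these cell types in the age difference of the family was not tested.

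**Figure D4:**
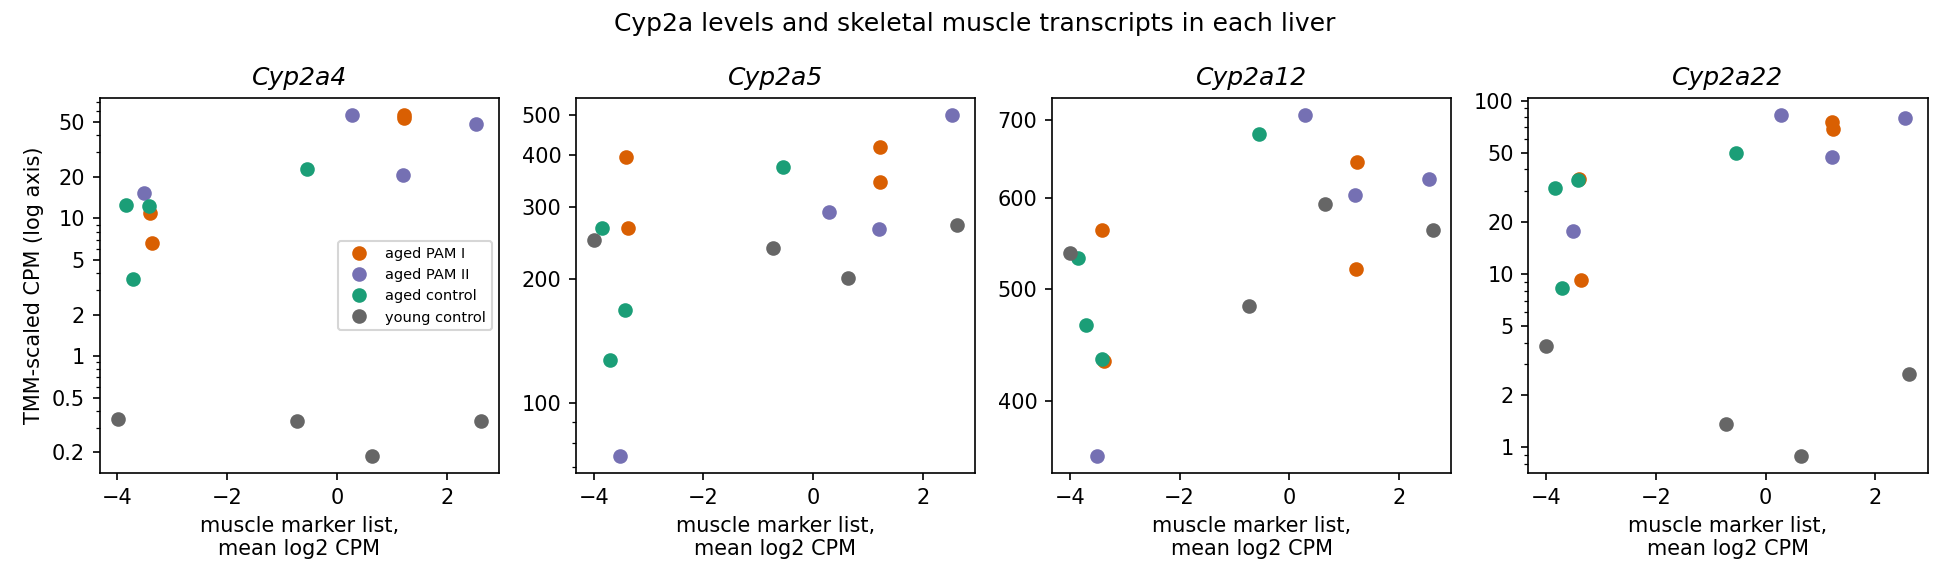
TMM-scaled CPM (log axis) of each Cyp2a gene against the mean log2 CPM of 14 skeletal muscle genes, 1 point per liver. Aged livers with more muscle transcript hold 20.5 to 56.0 CPM of Cyp2a4 and the other aged livers 3.65 to 15.1 CPM, while young livers stay at or below 0.349 CPM across the whole muscle range.

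Known regulators of the family passed the test with age at a share close to that of all genes. Of 26 regulators tested, 1 rose and 0 fell in aged controls against young controls, beside 3.23% called over all genes. Before adjustment 7 had p under 0.05 by edgeR, as did 3242 of the 17046 genes. The list's median log2 fold change was -0.026 against -0.0077 over all genes. Of the direct regulators, none passed. The log2 fold changes were -0.41 ± 0.32 for Nr1i3 (CAR), 0.32 ± 0.20 for Nfe2l2 (Nrf2) and -0.11 ± 0.15 for Hnf4a. Those of the growth hormone route were -0.13 ± 0.13 for Stat5b, -0.63 ± 0.41 for Bcl6, a repressor of female-biased genes in male liver, and 1.04 ± 0.62 for Cux2, a factor with higher levels in female liver. Without aged control replicate 4 the value of Cux2 was 0.17. Hnrnpa1, which binds and stabilises Cyp2a5 mRNA, was at 0.26 ± 0.11. Among 15 clock and PAR bZIP genes 0 passed (2 at p under 0.05 before adjustment, 1 by DESeq2 and 1 by limma voom), with Dbp at -1.11 ± 0.90. Pearson r was also taken over the 12 aged livers after each group mean was subtracted, as a description over shared libraries. Nfe2l2 had r = 0.883 with Cyp2a4, 0.643 with Cyp2a5, 0.598 with Cyp2a12 and 0.890 with Cyp2a22. For Hnrnpa1 the values were -0.484, -0.717, -0.672 and -0.455 in the same order. The other direct regulators lay between -0.089 and 0.572. A part of these regulators in the spread was not tested.

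Among the other Cyp2 genes of the same chromosome 7 cluster, 2 of 7 tested rose in aged controls, beside 1.92% called as higher over all genes. These 2, Cyp2b9 and Cyp2b13, are also counted in the female-biased list below. Cyp2b9, a female-biased P450 beside Cyp2a4, averaged 117 ± 29.8 CPM in aged controls and 0.0511 ± 0.0468 CPM in young controls (SD, n = 4 each; adjusted p = 3.56e-05, edgeR). Young libraries held 0, 4, 1 and 3 fragments of it. Cyp2b13, also female-biased, had 648 fragments in the 4 aged controls and 0 in the 4 young controls, at least 196-fold higher when the young group is set at a floor of 3 fragments (adjusted p = 0.0319). Leaving out single libraries kept the Cyp2b13 call in 1 of 8 fits. Cyp2f2, which lies beyond Cyp2a12, had a log2 fold change of -0.66 ± 0.24 (SE; adjusted p = 0.142). The list's median was 0.28, the same with Cyp2b13 at its bound.

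Many female-biased liver genes outside the family rose in aged controls, and most of the male-biased genes fell. Of 25 female-biased genes tested, 11 rose and 0 fell, with a median log2 fold change of 2.34, unchanged with the 2 genes at 0 in one group put at their bound. Beside Cyp2b9 and Cyp2b13 these included Slc22a27, an organic anion transporter (3.96 ± 0.42, adjusted p = 0.000126), Atp6v0d2, a proton pump subunit (2.43 ± 0.27, adjusted p = 0.000154), Ntrk2, a neurotrophin receptor (3.08 ± 0.57, adjusted p = 0.00989), Acot3, an acyl-CoA thioesterase (3.01 ± 0.57, adjusted p = 0.0105), and Hao2, a hydroxyacid oxidase (6.07 ± 1.20, adjusted p = 0.0130; log2 fold change ± SE, edgeR). Of 28 male-biased genes tested, 0 rose and 22 fell, with a median of -1.996. Gstp1, a glutathione transferase, averaged 247 ± 33.2 CPM in aged controls and 1196 ± 331 CPM in young controls (adjusted p = 4.76e-05), and Selenbp2, a selenium-binding protein, 9.99 ± 2.79 CPM in aged controls and 529 ± 309 CPM in young controls (adjusted p = 9.14e-05; SD, n = 4 each, edgeR). Ces4a, Hsd3b5, Gstp2 and Nudt7 fell by 4.33, 8.26, 2.19 and 1.58 on the log2 scale. Without young replicate 4 the counts were 5 female-biased and 11 male-biased genes, without young replicate 1 the female-biased count was 6, and without aged control replicate 4 the male-biased count was 12. Without the 6 aged livers with more muscle transcript 7 female-biased genes were called. Acot3 lost its call without young replicate 4 and Hao2 without young replicate 1. Single young libraries moved the log2 fold change to 4.13 for Ntrk2 (without replicate 3), 3.70 for Acot3 (without replicate 2) and 7.18 for Hao2 (without replicate 4). These lists were chosen with the ageing result known and are not independent evidence of its direction.

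Lists tied to the inducers, partners, place and substrates of the enzymes held 0 to 3 called genes each, of 14 to 25 tested. Those of the CAR and NRF2, pericentral and substrate lists are larger shares than the 3.23% of all genes, and the other lists held 0. The counts changed between fits. Of 25 CAR and NRF2 target genes tested, 1 rose and 1 fell. Nqo1, a quinone reductase, had 12.6 ± 3.30 CPM in aged controls and 5.98 ± 1.61 CPM in young controls (adjusted p = 0.0155), and Ces2a, a carboxylesterase, 182 ± 34.1 CPM in aged controls and 366 ± 32.1 CPM in young controls (adjusted p = 0.00464; SD, n = 4 each, edgeR). The Nqo1 call was lost without young replicate 1 or 4. Of 16 P450 partners and heme enzymes, which include Por and the heme synthesis enzyme Alas1, 0 passed (1 at p under 0.05 before adjustment, 0 by DESeq2 and 0 by limma voom), with a median of -0.017. Of 18 pericentral genes, which mark the zone around the central vein, 0 rose and 2 fell, namely Cyp1a2 (-1.18 ± 0.30, adjusted p = 0.0447) and Cyp27a1 (-0.71 ± 0.18, adjusted p = 0.0404). Each of these 2 calls held in 1 of 8 fits that left out a library. Of 18 periportal genes 0 passed (8 before adjustment, 1 by DESeq2, 0 by limma voom), with a median of -0.41. Of 14 enzymes that share substrates with the family, 0 rose and 3 fell: Ugt2b1 (-1.22 ± 0.25, adjusted p = 0.0157), Ugt2b5 (-0.75 ± 0.17, adjusted p = 0.0279), both glucuronosyltransferases, and Hsd17b2, a steroid dehydrogenase (-0.67 ± 0.16, adjusted p = 0.0363; log2 fold change ± SE). None of these 3 calls held without aged control replicate 4 or without young replicate 4, and leaving out aged control replicate 1 ended those of Ugt2b5 and Hsd17b2, as did aged control replicate 3 or young replicate 1 for Hsd17b2. Ugt2b1 is also on the male-biased list, so its call is counted in both lists.

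**Figure D5:**
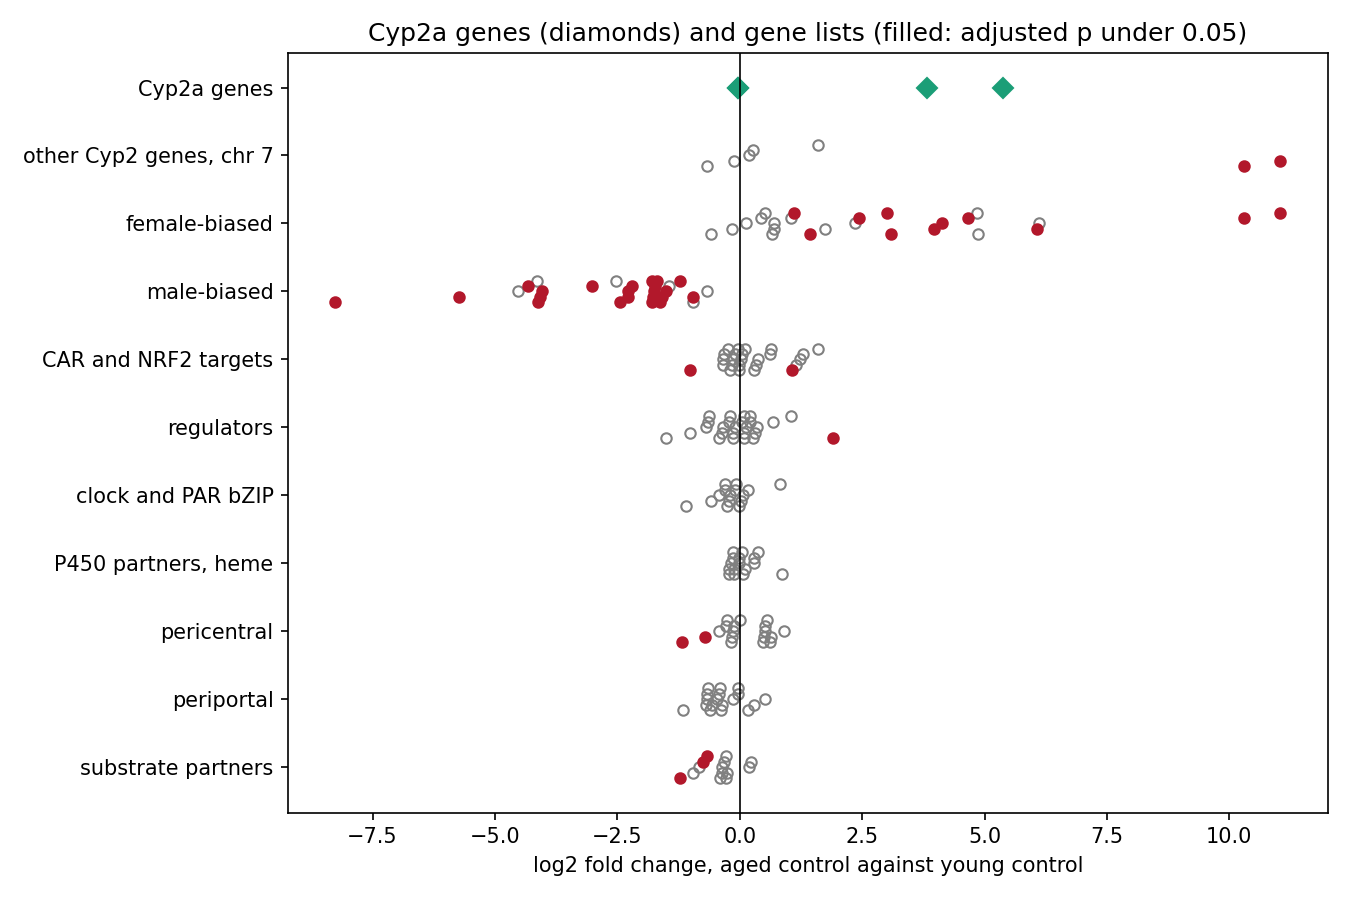
Log2 fold change of aged control against young control for the 4 Cyp2a genes (diamonds, no test; Cyp2a5 and Cyp2a12 overlie each other near 0) and for each tested gene of 10 lists (circles, filled where the adjusted p is under 0.05). Female-biased genes lie mostly to the right (11 of 25 called) and male-biased genes to the left (22 of 28 called), and the fitted value of Cyp2b13 rests on young libraries at 0.

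In PAM I and in PAM II livers against aged controls, and in PAM II against PAM I, 0 genes of any of the 10 lists passed by edgeR or by limma voom, and DESeq2 called 1 of the P450 partners and heme enzymes in PAM I. Before adjustment 0 to 5 genes of a list had p under 0.05 in PAM I against aged control, 0 to 3 in PAM II against aged control and 0 to 4 in PAM II against PAM I. The medians of the female-biased list were 0.16 for PAM I against aged control, 0.58 for PAM II against aged control and 0.51 for PAM II against PAM I, and those of the male-biased list were 0.085, -0.32 and -0.46 in the same order. Cyp2b9 had 295, 194, 30.8 and 51.95 CPM in PAM I livers, 88.4, 250.2, 192 and 349 CPM in PAM II livers and 108, 156, 84.3 and 119.8 CPM in aged controls. Its high PAM I livers, replicates 1 and 2, were also the high pair for Cyp2a4 and Cyp2a22.

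The genes whose log2 CPM followed each member most closely were picked by Pearson r among 10869 other protein-coding genes, as a description over points that share libraries and depth. Over all 16 livers Cyp2a4 was followed by Cyp2b9 (r = 0.956), Slc22a27, Cd36, Vldlr and Fbxo40, and Cyp2a22 by Cyp2c39 (r = 0.956), H2-Q1, Mogat1, Cyp2c38 and Osbpl3. Cyp2a5 was followed by Dglucy (r = 0.840), Reep6, 9130409I23Rik, Fmo1 and Nipsnap1, and Cyp2a12 by Galm (r = 0.860), Tpmt, Fmo1, Rmdn1 and Osbpl1a. Within the 12 aged livers, after each group mean was subtracted, Cyp2a4 went most closely with Gramd1c (r = 0.961), Fnip2, Fasn, Arhgap26 and Urb1, and Cyp2a22 with Fasn (r = 0.986), Abhd5, Cyp2c39 and Snhg11. Fasn, the fatty acid synthase, was thus in both lists. There Cyp2a5 went with Fmo1 (r = 0.951), Xkr9, Sult1b1, Parp9 and Klhl22, and Cyp2a12 with Ugdh (r = 0.955), Cyp2f2, Ugt2b36, Ifih1 and Parp12.

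Between members, Cyp2a4 and Cyp2a22 had r = 0.972 over 16 livers and 0.933 within the aged livers, although they belong to different sequence pairs. Cyp2a5 and Cyp2a12 had r = 0.762 and 0.881 on the same measures. Cyp2a4 and its near copy Cyp2a5 had r = 0.291 and 0.610.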

How the data were processed

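RNA was measured in 16 mouse livers. Per the labels' protocols, RNA was extracted from frozen tissue with Trizol. Per the submitters' processing notes, the authors used Trimmomatic 0.38, HISAT2 2.1.0 and the build mm10. The deposited files hold raw counts of fragments per gene, which the authors made with featureCounts 1.5.0-p2, stranded and paired, over exons of the Ensembl GRCm38 annotation, per the file headers. The command there carries no option that counts fragments placed at several sites, so near copies keep the fragments that the aligner placed at 1 site.

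Here the counts were fitted with edgeR 4.0.16 (R 4.3.3): genes kept by filterByExpr, TMM scaling, a robust quasi-likelihood fit of all 16 libraries with 1 mean per group, and Benjamini-Hochberg adjustment over 17046 genes, with a threshold of 0.05. The biological coefficient of variation was 27.3%. Symbols came from GENCODE M21, which matched 55144 of 55471 identifiers. CPM per kilobase used the exon length in the files. Log2 CPM used a prior count of 2. Confidence intervals of 95% are exact (Clopper-Pearson) and cover counting error only. The closest 2 libraries, PAM I replicates 1 and 2, differed by 0.469 log2 units (root mean square), so no library was treated as a copy. The test was checked on simulated data with the same spread for every gene and with changes placed only in genes with many fragments. That check does not cover a gene as scarce as Cyp2a4 was in young livers, or as variable as it was among aged livers. DESeq2 1.42.0, limma voom 3.58.1 and other scalings and filters were alternatives.

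The members and the gene lists were chosen with earlier results of these data known. The text names the members, up to 6 called genes of each list by smallest p, the direct regulators whatever their p, and the 5 genes most like each member, except that 2 genes which this rule picks are not reported here. Replicate numbers follow the order of deposit and only name libraries.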

Additional observations from a re-analysis of the deposited data

Results flagged for a closer look

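Cyp2a4 in young control replicate 4 was 0.188 CPM, against 0.336 to 0.349 CPM in the other 3 young livers. It stood apart from its group by a gap test, 1 of 28 groups tested, and chance alone gives about 1 in 20. The value rests on 7 fragments.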

How the results depend on the processing

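For aged control against young control, the log2 fold changes of Cyp2a4 and Cyp2a22 stayed positive under every alternative, at 4.95 to 5.70 and 3.49 to 4.27 when single libraries were left out, and Cyp2a4 was at 6.21 with the muscle list as a covariate. The 551 genes called became 1343 with DESeq2, 198 with only the compared groups fitted, 299 with the muscle covariate, 231 without the 6 aged libraries with high muscle transcript (an alternative chosen after seeing the data) and 199 to 573 when single libraries were left out. The lowest, 199, was without young replicate 4, and 284 and 271 were called without aged control replicate 4 and without young replicate 1. Leaving out single libraries gave 0 to 1 clock, 1 to 2 chromosome 7, 5 to 10 female-biased, 11 to 19 male-biased, 1 to 4 CAR and NRF2, 0 to 2 pericentral, 0 to 1 periportal and 0 to 4 substrate genes called. DESeq2 called 1 clock, 4 CAR and NRF2 and 1 periportal gene, and limma voom called 1 clock, 1 chromosome 7, 7 female-biased and 1 pericentral gene. With no filter on low counts, 1 chromosome 7, 14 male-biased and 0 pericentral genes were called. With only the compared groups fitted, 1 CAR and NRF2, 0 pericentral and 1 substrate gene were called, and with the muscle covariate 0 pericentral and 1 substrate gene. Without the 6 libraries, 7 female-biased, 1 CAR and NRF2 and 0 pericentral genes were called. The sign turned for Nr1i3 (0.048 with the muscle covariate, 0.055 without young replicate 1), for Hnf4a (0.052) and Stat5b (0.0018) without aged control replicate 4, and for Dbp (0.79 without young replicate 1). Over fits without 1 library these genes ran from -0.62 to 0.055 (Nr1i3), -0.25 to 0.052 (Hnf4a), -0.19 to 0.0018 (Stat5b) and -2.17 to 0.79 (Dbp), and Cux2 from 0.17 to 1.33. Among the members, fits without 1 library ran from -0.36 to 0.18 for Cyp2a5, -0.19 to 0.045 for Cyp2a12 and -0.29 to 0.26 for Cyp2a4 plus Cyp2a5. Cyp2b9, Slc22a27, Atp6v0d2, Selenbp2, Gstp1, Gstp2, Nudt7, Ces4a, Hsd3b5 and Ces2a were called in each fit that gave them an adjusted p, and each other named list gene that was called lost its call in at least 1 fit.

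For PAM I against aged control, DESeq2 called 15 genes, of which 1 was a P450 partner or heme enzyme. Without the 6 libraries, 3 genes were called for PAM I against aged control, 32 for PAM II against aged control and 12 for PAM II against PAM I. This fit leaves 1 PAM II liver, replicate 1, so both PAM II comparisons rest on that library. Nothing is read from their counts of called genes. In this fit the log2 fold change for PAM I against aged control was -0.14 ± 0.45 for Cyp2a4 and -0.18 ± 0.71 for Cyp2a22 (SE). For PAM II against aged control it was -1.35 for Cyp2a5, -0.43 for Cyp2a12, -0.51 for Cyp2a22 and -1.15 for Cyp2a4 plus Cyp2a5. For PAM II against PAM I it was -2.15 for Cyp2a5, -0.47 for Cyp2a12 and -1.92 for the sum. With the muscle covariate, Cyp2a4 in PAM II against aged control was 0.42. Leaving out single libraries also turned the sign of Cyp2a12 (-0.084 to 0.16) for PAM I against aged control, of Cyp2a5 (-0.17 to 0.596) and Cyp2a12 (-0.0083 to 0.28) for PAM II against aged control, and of each member for PAM II against PAM I, where Cyp2a4 ran from -0.18 to 0.59. The cause of these shifts was not tested. No paired analysis was possible because the labels give no replicate numbers shared between groups. Depth limits Cyp2a4 in young livers, where 7 to 14 fragments carry each value.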
